A study of Homo sapiens with 5 samples.

Results

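The genes described here are 36 transcripts of the endoplasmic reticulum (ER) folding machinery and of the unfolded protein response, taken by symbol from a fixed list, out of 15028 genes kept after filtering and 15266 genes listed in all 5 libraries. All 36 passed that filter, and the rule itself used no measured value. They were grouped by role into 6 luminal chaperones, 4 co-chaperones with a J domain, 6 disulfide isomerases and small secreted ER stress proteins, 7 factors of ER-associated degradation, 9 subunits of the translocon, signal peptidase and glycosylation machinery, and the 3 stress sensors with XBP1.

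SW480 is a human colorectal cancer cell line. GFP-transfected SW480 cells were injected into the perivitelline space of zebrafish embryos. The tumors were dissected at 1 or 4 days post injection (dpi) and digested with liberase. The cells were sorted as DAPI-negative, that is live, single cells into 384-well plates for SORT-seq. Libraries 6, 7 and 8 were the 3 plates of 1 dpi, and libraries 10 and 11 were the 2 plates of 4 dpi. All 5 libraries came from the same GFP-labelled line, and the labels give no drug treatment. The question was how the tumor cells differed between the early time point and the time after clearance. Tumors were pooled before sorting, so no cell can be traced to an animal. No source states if plates of the same age hold different pools. The p-values over time therefore measure the spread between plates, which may be technical only. Where 2 kinds of cell of the same plate are compared, they measure how that difference varied from plate to plate.

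The ER is where secreted and membrane proteins enter the secretory pathway, fold, receive disulfide bonds and sugars, and are checked before export. When unfolded proteins build up, the sensors ATF6, IRE1 (encoded by ERN1) and PERK (encoded by EIF2AK3) start the unfolded protein response: ATF6 and the spliced product of XBP1 act as transcription factors for chaperones and degradation factors, whereas PERK lowers general translation. The pathway is active in secretory epithelia and in many tumors, and the chaperone BiP (encoded by HSPA5) both folds client proteins and holds the sensors inactive.

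Many chaperone promoters carry the ER stress response element (ERSE), in which the letters CCAAT and CCACG lie 9 bases apart, or the shorter ERSE-II, in which ATTGG and CCACG lie 1 base apart. The promoter windows of RefSeq (GRCh38.p14, 250 bases before to 50 after each start site) held 34 of the 36 members; DERL1 and PDIA3 had no entry. Both strands were searched for the exact letters. The ERSE was found in 6 member promoters and in 22 of all 27305 promoters (0.0806%), and the ERSE-II in 3 member promoters and in 15 of all promoters (0.0549%). The sites are shown because the members that carry them include 6 of the 11 members called over time, a link that was not tested. Each is written 5′ to 3′ on the strand on which CCACG reads forward, with 5 bases on either side, in lower case, and with the defining letters in capitals.
The ERSE sites were as follows.
CANX, chr5:179698773-179698801, plus strand: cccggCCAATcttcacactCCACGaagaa
HSPA5, chr9:125241386-125241414, minus strand: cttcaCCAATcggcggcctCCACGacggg
HSP90B1, chr12:103930211-103930239, plus strand: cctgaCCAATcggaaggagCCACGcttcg
HSP90B1, chr12:103930316-103930344, minus strand: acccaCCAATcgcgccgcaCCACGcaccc
CALR, chr19:12938379-12938407, minus strand: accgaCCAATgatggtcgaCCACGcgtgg
XBP1, chr22:28800598-28800626, minus strand: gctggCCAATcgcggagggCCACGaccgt
CRELD2, chr22:49918549-49918577, minus strand: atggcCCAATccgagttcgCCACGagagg
The ERSE-II sites were as follows.
HYOU1, chr11:119057375-119057395, plus strand: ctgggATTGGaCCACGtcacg
HYOU1, chr11:119057269-119057289, plus strand: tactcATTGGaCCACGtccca
HERPUD1, chr16:56932020-56932040, plus strand: cgccgATTGGgCCACGttggg
SDF2L1, chr22:21642109-21642129, minus strand: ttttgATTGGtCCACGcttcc
All these sites lay upstream of the annotated start site. HSPA5, XBP1 and CANX carried the ERSE in the direction of the gene, CALR and CRELD2 on the opposite strand, and HSP90B1 once on each strand. HYOU1 carried 2 copies of the ERSE-II. The ATF6-binding letters TGACGTGG occurred in 2 member promoters, those of DNAJC10 and HYOU1, and in 217 of all promoters (0.795%), and the HYOU1 match overlapped one of its ERSE-II copies. TGACGTGA was in 0 member promoters and in 111 of all promoters. A match of letters is not evidence of binding, and these windows do not cover distal elements.

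**Figure D1:**
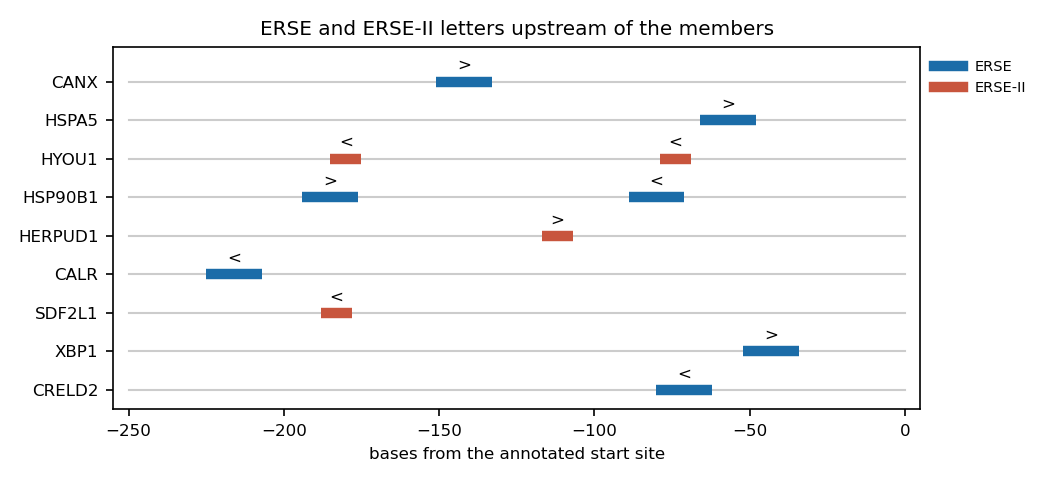
Position of ERSE (blue) and ERSE-II (red) letters in the 250 bases before the annotated start site of 9 members, in bases from the start (0). The symbol above each bar gives the direction, > with the gene and < against it. Sites lay between 225 and 34 bases before the start.

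A total of 826 cells were kept, each with over 2000 genes and with mitochondrial UMIs below 25%, 533 at 1 dpi and 293 at 4 dpi, with 132 to 228 cells and 3789632 to 7503665 UMIs per library. Median depth per cell ran from 25938 to 36197 UMIs in the 1 dpi libraries and was 26120 and 18823 UMIs in the 4 dpi libraries. Levels are given as CPM, the UMIs of a gene per 1000000 UMIs of the library after TMM scaling, which evens out composition between libraries. The colon epithelium markers EPCAM and KRT18 were at 1169 to 1521 and 747 to 1349 CPM. KRT8, KRT19 and CLDN7 were at 155 CPM or more in every library. CDH1 and VIL1 were at 34.2 to 80.1 and 19.4 to 31.1 CPM. CDX2 was at 9.56 to 31.5, CDH17 at 12.04 to 19.88 and LGALS4 at 1.76 to 3.99 CPM. Of 12 markers of blood, vessel, stroma, liver and red cells only 3 had enough UMIs to be tested. Among them ALB was at 1.87 to 5.7 CPM, so the levels of LGALS4 overlapped those of this liver marker. CD68 was at 1.56 to 5.32 CPM. COL1A1 was at 1.47, 4.18 and 2.73 CPM in the 1 dpi libraries and at 16.6 and 7.03 in the 4 dpi libraries. In library 10 it was above CDX2, which was at 9.56 CPM there. Of the 10 epithelium markers 3 fell and 1 rose from 1 to 4 dpi, and of the 3 other markers COL1A1 rose. All 20 mitotic genes of a check list were higher at 4 dpi (median log2 ratio 1.03), so the members are also given by proliferation status below, and the part of the mitotic share in the values over all cells was not tested otherwise. The names under which the counts were deposited held the same code for libraries 6, 7 and 10 and another for libraries 8 and 11. This code was read as that of a flow cell and is called flow cell below. The sample labels do not state what it stands for.

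Together the 36 members held 0.656%, 0.596% and 0.687% of all UMIs in the 1 dpi libraries and 0.602% and 0.610% in the 4 dpi libraries. The group values were 0.646 ± 0.0466% (SD, n = 3) and 0.606 ± 0.00529% (SD, n = 2), and the ranges of the time points overlapped. HSPA5 and HSP90B1 together with CANX and SEC61G were the most abundant members, each at 519 CPM or more in every library, and ERN1 was the scarcest, with 49 UMIs in all. SORT-seq counts 1 UMI per captured 3′ end, so these levels are not scaled to transcript length.

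**Figure D2:**
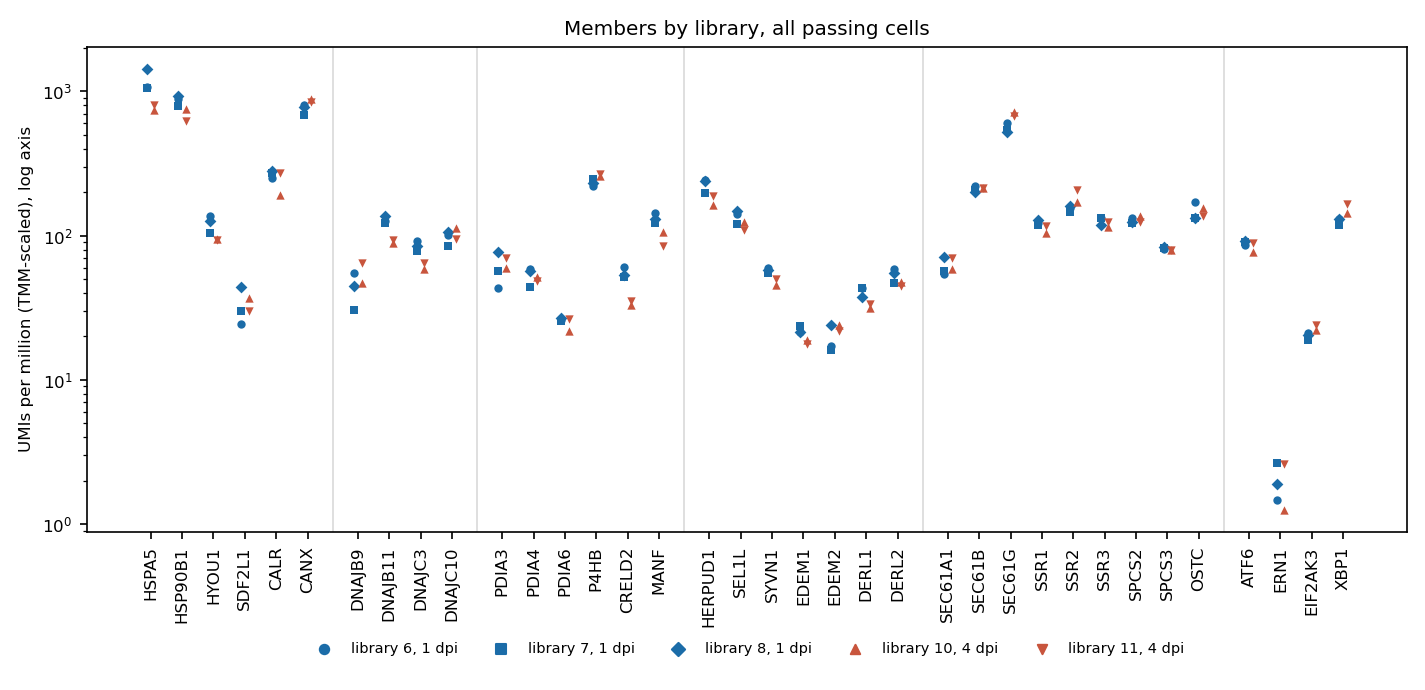
Level of each of the 36 members in CPM (log axis, TMM-scaled) in each library, with 1 dpi in blue and 4 dpi in red and 1 symbol per library. Members are ordered by role, from luminal chaperones at the left to the sensors and XBP1 at the right. The 2 HSPA5 values at 4 dpi lie below all 3 at 1 dpi, and those of SEC61G lie above.

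A set of 8 members, HSPA5, HSP90B1, HYOU1, DNAJB11, DNAJC3, CRELD2, MANF and HERPUD1, fell at 4 dpi, and 3 members, SEC61G, SSR2 and XBP1, rose (edgeR quasi-likelihood test, adjusted p under 0.05). Of the 12610 genes tested, 14.2% were called lower and 13.4% higher, beside 8 lower and 3 higher of the 36 members. Neither count of members was tested against these shares. Several calls did not hold under other settings: at a mitochondrial maximum of 15% those of HSPA5, HSP90B1 and HERPUD1 were lost among others, and with DESeq2, with no filter on low counts or with flow cell as a term SEC61G was the single higher member. The median log2 ratio was -0.09 over the members and 0.00 over all genes tested. In 13 members both 4 dpi libraries lay below all 1 dpi libraries, against 27.7% of all genes, and in 6 members both lay above, against 27% of all genes.

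Among the luminal chaperones, HSPA5 (BiP) changed most. It stood at 1070.3, 1059 and 1429 CPM in the 1 dpi libraries and at 738 and 805 in the 4 dpi libraries. The 2 groups did not overlap, and the means were 1186 ± 210.4 (SD, n = 3) and 772 ± 47.9 (SD, n = 2). This was a log2 ratio of -0.62 ± 0.12 SE, adjusted p = 0.00126. Because the groups did not overlap, the direction within flow cells was necessarily the same, with library 10 below libraries 6 and 7, and library 11 below library 8. HSP90B1, the ER paralog of HSP90 (GRP94), was at 886, 792 and 931 CPM in the 1 dpi libraries and at 761 and 628 in the 4 dpi libraries. Every 4 dpi value was below every 1 dpi value, and the test gave a log2 ratio of -0.32 ± 0.10 SE, adjusted p = 0.0257. HYOU1, a large chaperone that exchanges nucleotide on BiP, was at 137, 104 and 126 CPM in the 1 dpi libraries and at 94.1 and 93.2 in the 4 dpi libraries, again without overlap (log2 ratio of -0.39 ± 0.12 SE, adjusted p = 0.0252). The lectin chaperones CALR and CANX, which hold glycoproteins in the folding cycle, had log2 ratios of -0.21 ± 0.12 and 0.20 ± 0.09 (SE), and the BiP cofactor SDF2L1 one of 0.04 ± 0.21 (SE). None of these passed the threshold.

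Of the J-domain proteins, which direct BiP to its clients, DNAJB11 and DNAJC3 fell. DNAJB11 was at 126, 122 and 138 CPM in the 1 dpi libraries and at 88.3 and 94.0 in the 4 dpi libraries. The 4 dpi values were well below the lowest 1 dpi value, with a log2 ratio of -0.49 ± 0.11 SE, adjusted p = 0.00300. DNAJC3, also known as an inhibitor of PERK, was at 91.5, 78.6 and 84.8 CPM in the 1 dpi libraries and at 58.9 and 65.1 in the 4 dpi libraries, with no overlap (log2 ratio of -0.46 ± 0.12 SE, adjusted p = 0.00888). DNAJB9, which restrains IRE1, went the other way in value but not past the threshold. Its libraries overlapped, at 54.8, 30.8 and 44.9 CPM in the 1 dpi libraries and at 47.3 and 64.8 in the 4 dpi libraries (log2 ratio of 0.35 ± 0.19 SE, adjusted p = 0.188). DNAJC10, an ER reductase, had a log2 ratio of 0.10 ± 0.12 (SE).

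Both small secreted ER stress proteins fell. CRELD2, a secreted protein with EGF-like domains, was at 60.5, 52.0 and 53.8 CPM in the 1 dpi libraries and at 33.2 and 35.4 in the 4 dpi libraries. All 4 dpi values were lower, with the lowest ratio of the 36 members (log2 ratio of -0.70 ± 0.13 SE, adjusted p = 0.00126). MANF, a secreted stress-inducible factor that binds BiP, was at 143, 122 and 129.8 CPM in the 1 dpi libraries and at 105 and 84.9 in the 4 dpi libraries, without overlap (log2 ratio of -0.47 ± 0.12 SE, adjusted p = 0.00790). The isomerases PDIA3, PDIA4, PDIA6 and P4HB, which form and shuffle disulfide bonds, had log2 ratios from -0.12 to 0.18, and none was called. The difference between them and the secreted proteins was not tested.

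In ER-associated degradation, which returns misfolded proteins to the cytosol for the proteasome, HERPUD1 was the single called member of 7. HERPUD1, a scaffold of the HRD1 ubiquitin ligase complex, was at 243, 198 and 239 CPM in the 1 dpi libraries and at 163 and 188 in the 4 dpi libraries. The groups did not overlap (log2 ratio of -0.37 ± 0.11 SE, adjusted p = 0.0207). The ligase SYVN1 (HRD1), its adaptor SEL1L, the mannosidase-like EDEM1 and the membrane factors DERL1 and DERL2 all had negative log2 ratios, from -0.34 to -0.22, and EDEM2 had a positive one of 0.28 ± 0.19 (SE). None of these 6 passed the threshold.

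In the translocon group 2 of 9 members rose and 0 fell. SEC61G, the small gamma subunit of the SEC61 channel, was at 599.7, 544 and 519 CPM in the 1 dpi libraries and at 725 and 676 in the 4 dpi libraries. Both 4 dpi values were above all 1 dpi values (log2 ratio of 0.34 ± 0.09 SE, adjusted p = 0.0119). SSR2, a subunit of the translocon-associated protein complex, was at 154, 146 and 160.2 CPM in the 1 dpi libraries and at 171 and 207 in the 4 dpi libraries, also without overlap (log2 ratio of 0.30 ± 0.10 SE, adjusted p = 0.0434), and with flow cell as a term it did not pass (adjusted p = 0.0526). The other subunits, SEC61A1, SEC61B, SSR1, SSR3, the signal peptidase members SPCS2 and SPCS3, and OSTC of the oligosaccharyltransferase, had log2 ratios between -0.16 and 0.10.

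XBP1, whose mRNA is spliced by IRE1, was at 129, 118 and 131 CPM in the 1 dpi libraries and at 144 and 165 in the 4 dpi libraries. The groups did not overlap (log2 ratio of 0.30 ± 0.10 SE, adjusted p = 0.0420), and with flow cell as a term XBP1 did not pass (adjusted p = 0.0514). A count of 3′ ends does not separate the spliced from the unspliced XBP1 mRNA. EIF2AK3 was at 21.1, 18.8 and 20.4 CPM at 1 dpi and at 22.1 and 24.2 at 4 dpi, without overlap but not past the threshold (log2 ratio of 0.20 ± 0.17 SE, adjusted p = 0.391). ATF6 was at 85.9, 90.9 and 92.4 CPM in the 1 dpi libraries and at 77.0 and 88.5 in the 4 dpi libraries, and the time points overlapped (log2 ratio of -0.12 ± 0.11 SE, adjusted p = 0.467). ERN1, at 1.47, 2.66 and 1.89 CPM in the 1 dpi libraries and at 1.26 and 2.60 in the 4 dpi libraries, was too scarce for a difference to be detected (SE 0.52).

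The members with ERSE or ERSE-II letters were 9, of which 5 fell (HSPA5, HSP90B1, HYOU1, CRELD2 and HERPUD1) and 1 rose (XBP1), with a median log2 ratio of -0.32. Over all genes 14.2% were called lower and 13.4% higher. At a mitochondrial maximum of 15%, CRELD2 alone of these 5 was still called lower, and XBP1 was still called higher. Of the 25 members with a promoter window but without these letters, 3 fell and 2 rose, with a median of -0.05. Between TOP2A-detected and TOP2A-zero cells 3 of the 9 were lower (median -0.25) and 10 of 24 without the letters (median -0.27), beside 4.52% of all genes. The difference between these sets was not tested.

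**Figure D3:**
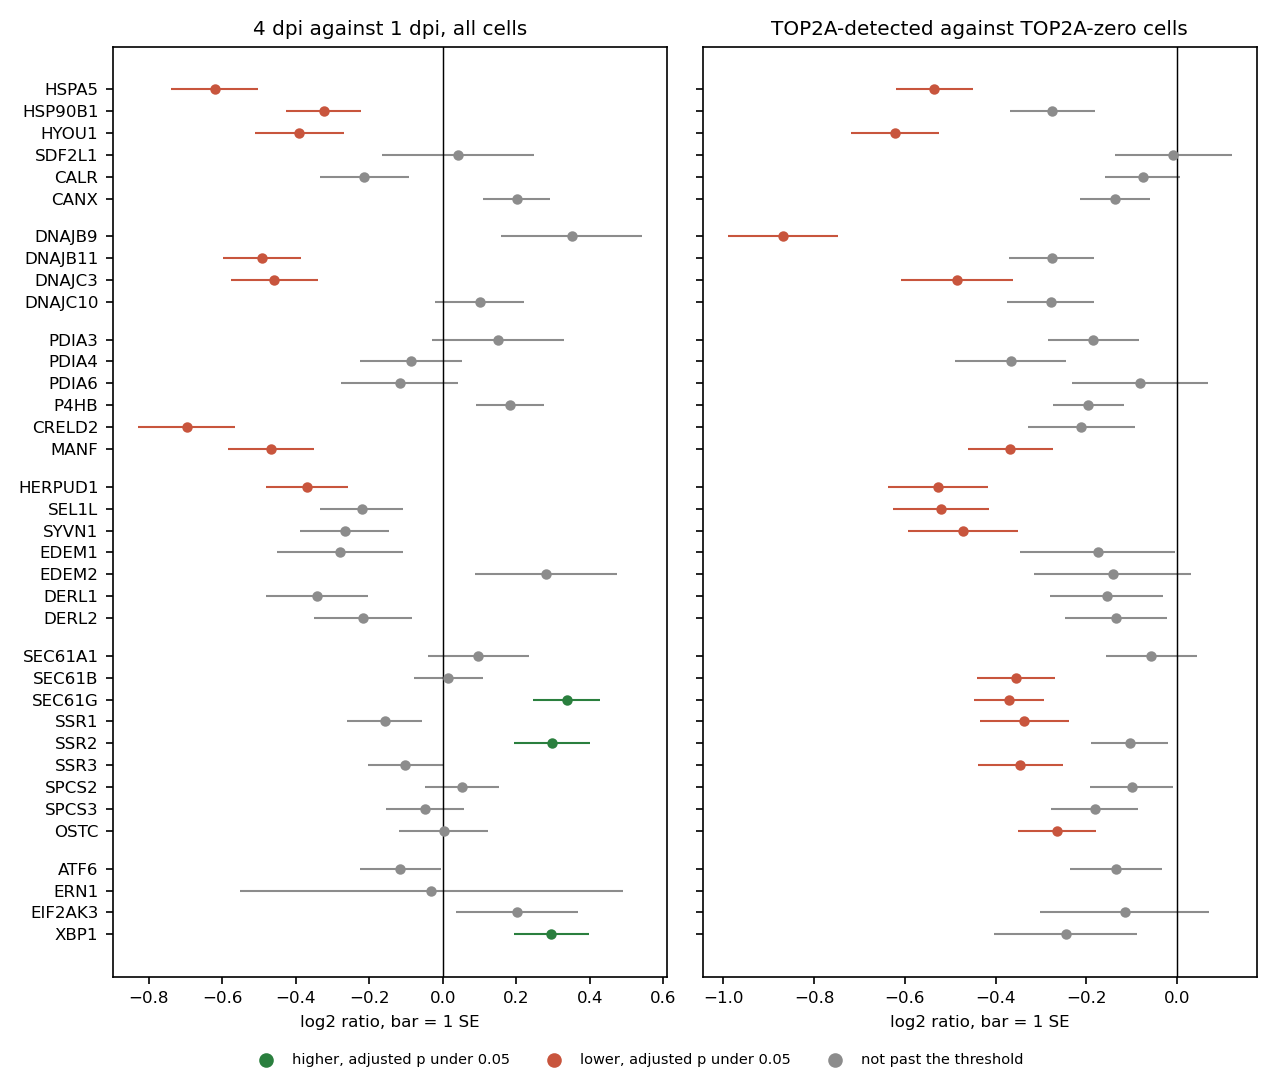
Log2 ratio of each member with 1 standard error, for 4 dpi against 1 dpi over all cells (left) and for TOP2A-detected against TOP2A-zero cells (right, different axis range). Green and red points passed an adjusted p of 0.05 as higher and lower, and grey points did not. The left panel has 8 red and 3 green points, and the right panel 13 red and 0 green points. ERN1 was tested over all cells only.

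The time difference depended on which cells were counted. Cells with 15 to 25% mitochondrial UMIs made up 29.4%, 23.2% and 16.6% of the cells at 1 dpi and 39.4% and 36.02% at 4 dpi. In these cells HSPA5, here scaled to the UMIs of those cells without TMM, was at 1443, 902 and 1605 CPM at 1 dpi and at 418 and 569 at 4 dpi. In cells under 15% it was at 947, 1071 and 1387 at 1 dpi and at 902 and 948 at 4 dpi, so that the time points met. HERPUD1 in the cells of 15 to 25% was at 280.5, 124 and 224 CPM at 1 dpi against 49.8 and 87.2 at 4 dpi, whereas under 15% all 5 libraries were between 211 and 246. CRELD2 was lower at 4 dpi in both kinds of cell, at 31.9 and 36.03 against 49.9 to 52.4 under 15%. In both 4 dpi libraries 27 of the 36 members were lower in the cells of 15 to 25% than in the cells under 15%, against 55.4% of 12545 other genes, and in all 3 libraries of 1 dpi 3 of 36 were so, against 43.7%. By library, 28 and 32 of 36 were lower in libraries 10 and 11 and 29 in library 7, beside 66.2% to 69.8% of other genes, whereas 7 were lower in library 6 and 8 in library 8, beside 73.7% and 71% of other genes. With non-mitochondrial UMIs as the total, chosen after seeing the data, 20 of 36 were lower in both 4 dpi libraries, against 44.1% of other genes, and 5 and 4 in libraries 6 and 8, against 62.1% and 61.8%. The part of the mitochondrial share in the time difference was not tested.

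With a mitochondrial maximum of 15%, 2 members (CRELD2 and DNAJB11) were called lower and 4 (SEC61G, SSR2, XBP1 and DNAJB9) higher, and the median log2 ratio of the members moved from -0.09 to 0.03. Over all genes the median was 0.002 before and -0.002 at this maximum, with 12385 genes tested. The share of all genes called at this maximum is not given here. HSPA5 then had a log2 ratio of -0.36 (edgeR adjusted p = 0.0501), HSP90B1 one of -0.21 (adjusted p = 0.157) and HERPUD1 one of -0.02 (adjusted p = 0.901), while XBP1 had one of 0.67 (adjusted p = 0.000489). The summed share of the members under this maximum was higher at 4 dpi than at 1 dpi by 0.0351 percentage points, where over all passing cells it was lower by 0.0402. With every cell thinned to 5000 UMIs, HSPA5 and MANF were called lower and 0 members higher, beside 523 lower and 595 higher of 8855 genes. With cells of 20000 to 40000 UMIs only, an alternative chosen after seeing the data, 0 members were called lower and XBP1 alone was called higher (0.73, adjusted p = 0.00163), and HSPA5 kept its direction (-0.59, adjusted p = 0.0569). In that depth range 695 genes were called lower and 733 higher of 10442 tested. For the fits without 1 library, which follow, the share of all genes called is not given. Leaving out 1 library at a time left 5 to 8 members lower and 0 to 2 higher, and HSPA5, CRELD2 and DNAJB11 were called lower each time. The call of MANF was lost without library 11 (adjusted p = 0.111), that of DNAJC3 without library 10, and that of HYOU1 without any library but 7. The calls of SSR2 and XBP1 were each lost in 4 of the 5 cases, and that of SEC61G without library 8 or 10. The calls of HSP90B1 and HERPUD1 were lost without library 6 (adjusted p = 0.0503 and 0.0659), HERPUD1 also without library 8 or 10 and HSP90B1 also without library 8 or 11.

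**Figure D4:**
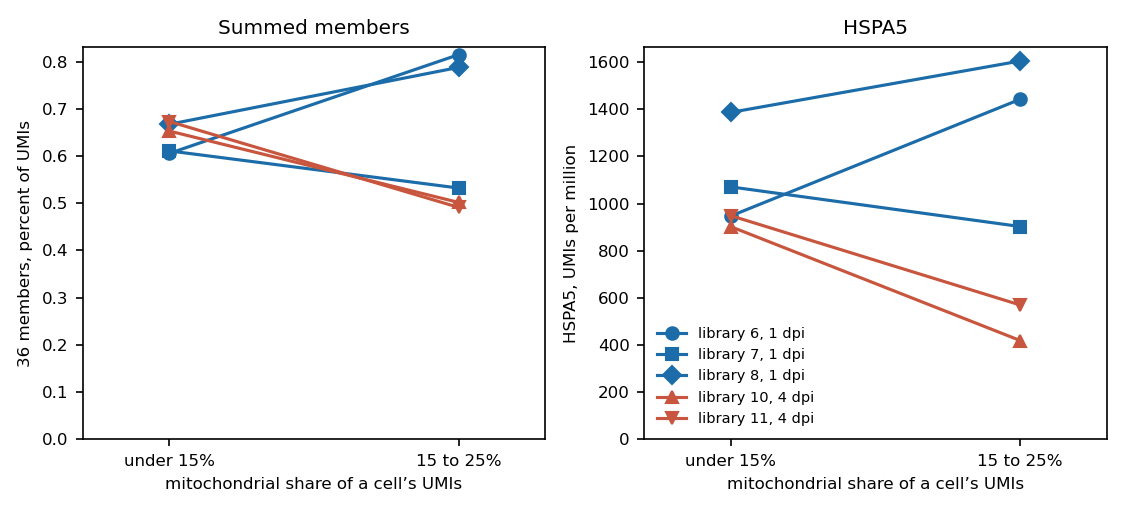
Summed members in percent of UMIs (left) and HSPA5 in CPM (right) in cells with under 15% and with 15 to 25% mitochondrial UMIs, 1 line per library, 1 dpi in blue and 4 dpi in red. Both 4 dpi lines descend, from 0.653% to 0.502% and from 0.673% to 0.491% for the sum, and those of libraries 6 and 8 rise.

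TOP2A, a topoisomerase made from S phase to mitosis, was used to divide the cells into 290 with at least 1 TOP2A UMI and 536 with none. The same 20 mitotic genes were all higher in the TOP2A-detected cells (median log2 ratio 2.79). Relative to all UMIs, 13 of the 35 members tested were lower in these cells and 0 higher (edgeR quasi-likelihood test with library as a block), against 4.52% lower and 5.76% higher of 10875 genes. All 35 log2 ratios were negative, with a median of -0.25 against -0.02 over all genes, and 0 members were higher at unadjusted p under 0.05 or with DESeq2. The count of lower members was 2 of 35 with TOP2A called after thinning, beside 179 of 10544 genes. With cells of 20000 to 40000 UMIs only it was 2 of 35, beside 121 of 8068 genes. With cells thinned to 5000 UMIs it was 6 of 32 (29 ratios negative), beside 102 of 5972 genes. Without the library block it was 1 of 35, beside 55 of 10875 genes. With a mitochondrial maximum of 15% it was 7 of 35 (33 ratios negative), with 10426 genes tested. The count of all genes called lower at this maximum is given in the closing section. Median mitochondrial shares were higher in TOP2A-detected cells of libraries 8, 10 and 11, at 10.91%, 14.39% and 14.12% against 9.89%, 11.87% and 9.92%. In libraries 6 and 7 they were lower, at 11.98% and 10.73% against 12.67% and 11.69%. The part of the mitochondrial share in these calls was not tested.

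Of the luminal chaperones, HSPA5 and HYOU1 were lower. HSPA5 was at 849, 833, 970.4, 689 and 681 CPM in the TOP2A-detected cells of libraries 6, 7, 8, 10 and 11, and at 1241, 1252, 1671, 809 and 966 in the TOP2A-zero cells. It was lower in the TOP2A-detected cells of all 5 libraries (log2 ratio of -0.54 ± 0.08 SE, adjusted p = 5.07e-05). HYOU1 was at 90.9, 81.3, 101, 84.6 and 72.6 against 173, 123, 139, 107 and 118, again lower in 5 of 5 libraries (log2 ratio of -0.62 ± 0.10 SE, adjusted p = 4.43e-05). HSP90B1 had a log2 ratio of -0.28 ± 0.09 (SE) and did not pass (adjusted p = 0.0612). In libraries 6, 7, 8 and 10 it was lower in the TOP2A-detected cells, and in library 11 it was higher, at 668 against 607.

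The lowest ratio of all members was that of DNAJB9, at 31.4, 18.9, 31.7, 37.1 and 53.1 CPM in TOP2A-detected cells and 72.9, 41.0, 51.9, 59.5 and 79.5 in TOP2A-zero cells. It was lower in 5 of 5 libraries (log2 ratio of -0.87 ± 0.12 SE, adjusted p = 8.96e-06). DNAJC3 was lower too (log2 ratio of -0.48 ± 0.12 SE, adjusted p = 0.0103), although not in library 7, where it was at 81.7 against 75.2. MANF passed at a log2 ratio of -0.37 ± 0.09 (SE). In ER-associated degradation 3 of 7 members passed, HERPUD1 (-0.53), SEL1L (-0.52) and SYVN1 (-0.47). In the translocon group 5 of 9 passed, SEC61G (-0.37), SEC61B (-0.35), SSR3 (-0.35), SSR1 (-0.34) and OSTC (-0.27). The sensors ATF6 and EIF2AK3 and XBP1 had ratios of -0.13, -0.12 and -0.25, and none passed.

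These are shares of UMIs, and TOP2A-detected cells held more UMIs in all, 1.42 to 1.71 times those of TOP2A-zero cells over the 5 libraries. In UMIs per cell, HSPA5 was 0.879 to 1.23 times as high in TOP2A-detected cells, HERPUD1 0.781 to 1.39 times and SEC61G 1.05 to 1.26 times. HSPA5 and HERPUD1 were thus below 1 in some libraries and above it in others, and SEC61G was above 1 in every library. DNAJB9, at 0.729 to 0.932 times, was the single member below 1 in all 5 libraries.

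A deeper cell is also more likely to show a TOP2A UMI. Median depth was 27911.5 to 48450 UMIs in TOP2A-detected and 15865 to 32246 in TOP2A-zero cells. With TOP2A called after every cell was thinned to 5000 UMIs, HERPUD1 and SEL1L remained called lower, 22 of 35 ratios were negative, and the median was -0.09. With cells of 20000 to 40000 UMIs only, DNAJC3 and SYVN1 were called, 26 of 35 ratios were negative, and the median was -0.16. HSPA5 had log2 ratios of -0.31 (adjusted p = 0.0599) and -0.48 (adjusted p = 0.0623) in the 2 settings, and DNAJB9 of -0.63 (adjusted p = 0.0654) and -0.63 (adjusted p = 0.0752). In each setting 11 of the 13 calls were lost. The TOP2A-detected cells were 14 to 35 per library after thinning and 14 to 25 in the depth range, against 42 to 71 in the main comparison. After thinning, cells left without a TOP2A UMI counted as TOP2A-zero. The parts of depth and of cell numbers in the lost calls were not tested. Without the library block 1 member, HYOU1, was called. Leaving out single libraries, the calls lost were those of DNAJC3 without library 6 or 10 or 11 (adjusted p = 0.0523 to 0.0691), MANF without library 6 (adjusted p = 0.0965), SYVN1 without library 6 or 8 (adjusted p = 0.0520 to 0.161), SEC61B without library 11 (adjusted p = 0.0530), SSR1 without library 6 or 8 or 11 (adjusted p = 0.0633 to 0.178), SSR3 without library 11 (adjusted p = 0.121) and OSTC without library 6 or 7 or 8 or 10 or 11 (adjusted p = 0.0618 to 0.154). HSPA5, HYOU1, DNAJB9, HERPUD1, SEL1L and SEC61G passed each time.

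Within the TOP2A-detected cells, 3 of 35 members rose from 1 to 4 dpi and 2 fell, against 9.7% higher and 9.04% lower of 11057 genes. SEC61G (log2 ratio of 0.38 ± 0.11 SE, adjusted p = 0.0221), DNAJB9 (log2 ratio of 0.71 ± 0.23 SE, adjusted p = 0.0345) and EIF2AK3 (log2 ratio of 0.73 ± 0.24 SE, adjusted p = 0.0371) rose. HSPA5 (log2 ratio of -0.38 ± 0.11 SE, adjusted p = 0.0198) and DNAJC3 (log2 ratio of -0.86 ± 0.17 SE, adjusted p = 0.00133) fell. DNAJC3 was at 76.1, 81.7 and 72.0 CPM at 1 dpi and at 40.5 and 45.0 at 4 dpi, without overlap. With cells thinned to 5000 UMIs, or with cells of 20000 to 40000 UMIs only, or with TOP2A called after thinning, 0 members were called, and in that depth range DNAJC3 had a log2 ratio of 0.09 (adjusted p = 0.928). Over all genes, these settings called 231 higher and 127 lower of 5529, 102 and 102 of 8168, and 275 and 260 of 9184, in that order. HSPA5 did not pass at a mitochondrial maximum of 15% (adjusted p = 0.399). With flow cell as a term DNAJB9 and EIF2AK3 did not pass (adjusted p = 0.0636 and 0.0517). Leaving out single libraries, the calls lost were those of SEC61G without library 7 or 8 or 10 or 11 (adjusted p = 0.0634 to 0.175), DNAJB9 without library 7 or 11 (adjusted p = 0.151 to 0.396), EIF2AK3 without library 6 or 7 or 8 or 10 or 11 (adjusted p = 0.0591 to 0.136) and HSPA5 without library 8 or 10 or 11 (adjusted p = 0.0931 to 0.113). DNAJC3 passed each time.

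Within the TOP2A-zero cells 2 members rose and 4 fell, against 8.07% higher and 8.18% lower of 11744 genes. XBP1 (log2 ratio of 0.71 ± 0.18 SE, adjusted p = 0.00988) and SEC61G (log2 ratio of 0.40 ± 0.12 SE, adjusted p = 0.0219) rose. XBP1 was at 147, 89.1 and 129 CPM at 1 dpi and at 158 and 243 at 4 dpi in these cells. HSPA5 (log2 ratio of -0.64 ± 0.13 SE, adjusted p = 0.00241), HSP90B1 (log2 ratio of -0.50 ± 0.13 SE, adjusted p = 0.0101), DNAJB11 (log2 ratio of -0.56 ± 0.14 SE, adjusted p = 0.00859) and CRELD2 (log2 ratio of -0.81 ± 0.17 SE, adjusted p = 0.00234) fell. With a mitochondrial maximum of 15%, 0 members were called lower in the TOP2A-zero cells and 3 (SEC61G, XBP1 and DNAJB9) higher. At that maximum 11347 genes were tested, and the share of them called is not given here. With cells thinned to 5000 UMIs 0 members were called, with cells of 20000 to 40000 UMIs XBP1 alone, and with DESeq2 XBP1 did not pass (adjusted p = 0.1997). Over all genes, thinning called 273 higher and 246 lower of 7086, and the depth range 293 and 267 of 9376. Leaving out single libraries, the calls lost were those of XBP1 without library 11 (adjusted p = 0.332), SEC61G without library 7 or 8 or 10 or 11 (adjusted p = 0.0535 to 0.145), HSPA5 without library 10 (adjusted p = 0.0700), HSP90B1 without library 11 (adjusted p = 0.183) and DNAJB11 without library 10 or 11 (adjusted p = 0.0602 to 0.0609). CRELD2 passed each time.

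No member was shown to change differently over time in the 2 kinds of cell. In the test of the difference itself, the interaction of time and TOP2A status, 0 of 35 members passed in either direction (edgeR, adjusted p under 0.05), against 0.137% higher and 0.0427% lower of 11701 genes. At unadjusted p under 0.05 there were 3 members with a higher change in TOP2A-detected cells (HSP90B1, PDIA4 and EIF2AK3) and 2 with a lower one (DNAJC3 and XBP1), and DESeq2 called 0. XBP1 had an interaction of -0.86 ± 0.26 (SE, adjusted p = 0.292) and EIF2AK3 one of 0.99 ± 0.33 (SE, adjusted p = 0.401). XBP1 passed with no filter on low counts and without library 10.

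Across single cells most pairs of members were weakly and positively correlated. With every cell thinned to 5000 UMIs, the Spearman correlation of HSPA5 with the sum of the other 35 members was 0.49 in the median over the 5 libraries (range 0.35 to 0.54, 130 to 226 cells each). HSP90B1 followed at 0.43 (0.40 to 0.58), then DNAJB9 at 0.32 (0.09 to 0.38). The median over the 36 members was 0.18. Among 3614 other genes with at least 0.2 UMI per thinned cell in every library, the median was -0.01 and the 95th percentile 0.111. Of the 30 members with a mean of at least 0.2 UMI over all thinned cells, a looser limit, 26 were above this percentile. ERN1 (-0.07), EDEM2 (0.02) and DERL2 (0.05) had the lowest values. Counting noise lowers the correlation of scarce members, and HSPA5 and HSP90B1, at 5.15 and 4.05 UMIs per thinned cell, were among the most abundant, so the order of the members is not one at equal abundance. EDEM2 and ERN1 were under 0.2 UMI per thinned cell.

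Of the pairs of members, HSPA5 with HERPUD1 stood highest, at a median of 0.41 (0.35 to 0.44), followed by HSPA5 with HSP90B1 at 0.35, DNAJB9 with HERPUD1 at 0.28 and HERPUD1 with XBP1 at 0.28. Of all 630 pairs 510 had a positive median, with a median of 0.06 over the pairs. Cells of a library share the plate, the sort and the division of a fixed UMI total, so these values describe the cells and carry no test.

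The correlations were lower in TOP2A-detected cells for 29 of the 36 members. The median over the members was 0.14 in TOP2A-detected and 0.24 in TOP2A-zero cells, with the 95th percentile of other genes at 0.131 and 0.136. HSPA5 had 0.37 and 0.56, HSP90B1 0.27 and 0.50, and DNAJB11 0.12 and 0.36. In 7 members (PDIA3, SEL1L, SYVN1, DERL2, ATF6, ERN1 and EIF2AK3) the value was higher in the TOP2A-detected cells, at 0.30 against 0.24 for SEL1L. The number of cells per library was 41 to 71 in the first and 74 to 155 in the second, and the difference was not tested.

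The sum of the members in a cell ran from 0.345 to 0.380% of UMIs at the 10th percentile of a library to 0.878 to 1.23% at the 90th, with medians of 0.510 to 0.557%. The 90th percentile was 1.02 to 1.35% in TOP2A-zero cells and 0.713 to 0.898% in TOP2A-detected cells. The Spearman correlation of this share with the mitochondrial share of the cell was 0.23, 0.11 and 0.00 at 1 dpi (libraries 6, 7 and 8). At 4 dpi it was -0.27 and -0.19.

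The 10 genes outside the list whose level followed the sum of the members most closely were TMED2 (0.29), ARF4 (0.25), SEC11C (0.25), GFPT1 (0.24), RPL10 (0.24), TMED9 (0.23), ARF1 (0.23), SERP1 (0.23), KDELR2 (0.23) and GDF15 (0.23), by the median Spearman correlation over the 5 libraries. TMED2 and TMED9 are cargo receptors of early secretory vesicles, ARF1 and ARF4 are GTPases of vesicle traffic, SEC11C is a signal peptidase subunit, SERP1 a translocon-associated stress protein and KDELR2 the receptor that returns ER proteins. GFPT1, the first enzyme of the hexosamine pathway, was the most even over libraries, from 0.23 to 0.25. TMED2 ran from 0.01 in library 11 to 0.37, and RPL10 was positive at 1 dpi alone. At the other end stood PHLDA1, at -0.32 (-0.41 to -0.19).

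Other genes of the pathway were taken from lists and counted in the same fits. The shares over all genes are 14.2% lower and 13.4% higher over time, and 4.52% lower and 5.76% higher for TOP2A status. In the PERK and ATF4 arm, 5 of 14 tested genes fell and 3 rose from 1 to 4 dpi. DDIT4 (log2 ratio of -1.29 ± 0.11 SE, adjusted p = 1.32e-06) and SESN2 (log2 ratio of -0.76 ± 0.11 SE, adjusted p = 0.000154), both stress-inducible repressors of mTORC1, fell, and ATF3 (log2 ratio of 0.67 ± 0.11 SE, adjusted p = 0.000375), a stress transcription factor, rose. In TOP2A-detected cells 7 of 13 were lower than in TOP2A-zero cells and 0 higher, among them DDIT3 (CHOP, log2 ratio of -0.46 ± 0.09 SE, adjusted p = 0.00138) and TRIB3 (log2 ratio of -0.63 ± 0.16 SE, adjusted p = 0.0113). TRIB3 also passed the interaction test (difference of log2 ratios of -1.16 ± 0.22 SE, adjusted p = 0.00750).

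Over time, 14.2% of all genes were lower and 13.4% higher. Of 9 tested ER stress transcription factors and their proteases, CREB3 rose (log2 ratio of 0.98 ± 0.22 SE, adjusted p = 0.00439) and NFYC, a subunit of the factor that binds CCAAT, fell (log2 ratio of -0.41 ± 0.11 SE, adjusted p = 0.0149). Of 13 further ER oxidoreductases 2 fell, ERO1A (log2 ratio of -0.54 ± 0.11 SE, adjusted p = 0.00194), the oxidase that recharges the disulfide isomerases, and TMX2 (log2 ratio of -0.48 ± 0.11 SE, adjusted p = 0.00536). Of 17 further degradation factors 5 fell and 2 rose, OS9, a lectin of the HRD1 complex, with the lowest adjusted p (log2 ratio of 0.83 ± 0.11 SE, adjusted p = 5.54e-05). Of 26 further translocon, signal recognition and oligosaccharyltransferase genes 5 rose and 1 fell, and in OST4 (log2 ratio of 0.80 ± 0.11 SE, adjusted p = 8.15e-05) and DDOST (log2 ratio of 0.68 ± 0.15 SE, adjusted p = 0.00335) the oligosaccharyltransferase had the lowest adjusted p. Of 18 genes of the COPII coat and its cargo 5 fell and 2 rose, with SEC23B (log2 ratio of -0.63 ± 0.12 SE, adjusted p = 0.00100) and SEC24A (log2 ratio of -0.75 ± 0.14 SE, adjusted p = 0.00100) at the lower end.

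Cytosolic and mitochondrial chaperones, which fold proteins outside the ER, served as a contrast. Of 20, 8 fell and 3 rose from 1 to 4 dpi (median log2 ratio -0.21), beside 14.2% lower and 13.4% higher of all genes. Of the 36 ER members 8 fell and 3 rose (median -0.09), so falling over time was not particular to the ER list. DNAJB1 (log2 ratio of -0.68 ± 0.10 SE, adjusted p = 0.000150) fell and HSPA1A (log2 ratio of 1.63 ± 0.26 SE, adjusted p = 0.000339) rose, although HSPA1A may share reads with its near-identical copy HSPA1B and its count is uncertain. In TOP2A-detected against TOP2A-zero cells 7 of these 20 were higher and 0 lower (median log2 ratio 0.24), beside 5.76% higher and 4.52% lower of all genes, against 0 higher and 13 lower of the 35 ER members (median -0.25). HSP90AA1 had a log2 ratio of 0.35 ± 0.09 (SE) and its ER paralog HSP90B1 one of -0.28 ± 0.09 (SE), and HSPD1 one of 0.31 ± 0.09 (SE). The difference between the 2 lists was not tested.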

How the data were processed

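UMI counts per gene and well were deposited by the authors for 5 SORT-seq plates of 384 wells. Per the labels and the study's methods, reads were mapped with BWA to a human reference (hg38 in the submitters' notes; no version is stated), and zebrafish genes were not analysed here. The wells of all plates carry the same 384 barcodes, so a cell is a library and a well. Cells of 2000 genes or fewer or 25% mitochondrial UMIs or more were left out, after the study's code, and genes seen in under 10 wells too. Spike-in (ERCC) rows counted in these 2 filters only. No doublet caller was run, since wells hold sorted single cells. The totals per library and their depth are in the report, and they limit a scarce gene such as ERN1.

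UMIs were summed over the passing cells of a library, and over TOP2A-detected and TOP2A-zero cells, and tested with edgeR 4.0.16 (TMM, filterByExpr, quasi-likelihood test, two-sided, Benjamini-Hochberg over all genes tested, threshold 0.05) in R 4.3.3. TOP2A itself was left out of the fits that use the division. DESeq2 1.42.0 was an alternative, and so were no filter on low counts, flow cell as a term, cells thinned to 5000 UMIs, a 15% mitochondrial maximum, a minimum of 3000 genes, mitochondrial genes left out, other TOP2A calls, no library block, leaving out each library, and (chosen after seeing the data) cells of 20000 to 40000 UMIs. The fits were also run on simulated counts in which the changes were larger than those of the members. That run therefore does not show how well changes of the members' size are found. Correlations used log2(UMIs per 10000 + 1) within a library, without a p (numpy 2.4.6, scipy 1.17.1, Python 3.11.15).

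The members, lists and tests were chosen with earlier results of these data known. Values per library are given for HSPA5, HSP90B1, the sensors with XBP1 and, in each role group, up to 4 called members with the largest change, with DNAJB9 added after its values were seen. From other lists up to 3 genes of lowest adjusted p are named, HSPD1 being added after its values were seen. Non-members are the 10 with the highest correlation with the summed members, and PHLDA1, the lowest, was added after seeing the values.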

Additional observations from a re-analysis of the deposited data

How the results depend on the processing

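The libraries are 3 and 2, summed per plate, and depth limits the scarce members. The fall of HSPA5, CRELD2 and DNAJB11 over all cells kept its direction under every alternative run, while its call was lost in some. The 15% mitochondrial maximum, thinning and the depth range each moved the count of called members by over 1.5 times, and the cause was not tested. Fits on fewer cells or fewer UMIs also test fewer genes. No paired analysis was possible because the time points share no library number to pair by. Flow cell, which both time points share, was fitted as a term instead. The TOP2A comparison held library as a block.

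With DESeq2, there was 1 higher member over all cells, and 618 higher and 551 lower genes with 1 higher member in TOP2A-detected cells over time. The same setting gave 471 higher and 529 lower genes with 1 higher member in TOP2A-zero cells over time, and 201 lower genes with 8 lower members between TOP2A-detected and TOP2A-zero cells. There were also 7 higher and 0 lower genes in the interaction. With no filter on low counts, there was 1 higher member over all cells, and 31 higher and 12 lower genes with 1 lower member in the interaction. With flow cell as a term, there was 1 higher member over all cells, and 1 higher member in TOP2A-detected cells over time. With every cell thinned to 5000 UMIs, there were 595 higher and 523 lower genes with 0 higher and 2 lower members with EIF2AK3 at -0.00432 (log2 ratio) over all cells, and 231 higher and 127 lower genes with 0 higher and 0 lower members in TOP2A-detected cells over time. The same setting gave 273 higher and 246 lower genes with 0 higher and 0 lower members in TOP2A-zero cells over time, and 189 higher and 102 lower genes with 6 lower members between TOP2A-detected and TOP2A-zero cells. There were also 4 higher and 1 lower gene in the interaction. With a mitochondrial maximum of 15%, there were 2 lower members with ERN1 at 0.23 (log2 ratio) over all cells, and 592 higher and 479 lower genes in TOP2A-detected cells over time. The same setting gave 0 lower members in TOP2A-zero cells over time, and 256 lower genes with 7 lower members between TOP2A-detected and TOP2A-zero cells. There was also 1 lower gene in the interaction. With only cells of 20000 to 40000 UMIs, chosen after seeing the data, there were 733 higher and 695 lower genes with 1 higher and 0 lower members with EIF2AK3 at -0.0819 (log2 ratio) over all cells, and 102 higher and 102 lower genes with 0 higher and 0 lower members with DNAJC3 at 0.0888 (log2 ratio) in TOP2A-detected cells over time. The same setting gave 293 higher and 267 lower genes with 1 higher and 0 lower members in TOP2A-zero cells over time, and 310 higher and 121 lower genes with 2 lower members between TOP2A-detected and TOP2A-zero cells. There were also 0 higher and 0 lower genes in the interaction. With at least 2 TOP2A UMIs, there were 646 lower genes with 1 higher member in TOP2A-detected cells over time, and 9 higher genes in the interaction. With TOP2A called after thinning, there were 275 higher and 260 lower genes with 0 higher and 0 lower members in TOP2A-detected cells over time, and 1473 lower genes with 1 higher and 7 lower members in TOP2A-zero cells over time. The same setting gave 179 lower genes with 2 lower members with HSP90B1 at 0.11 (log2 ratio) with OSTC at 0.0553 (log2 ratio) between TOP2A-detected and TOP2A-zero cells, and 0 higher and 0 lower genes in the interaction. With no replicate block (library left out of the model), there were 329 higher and 55 lower genes with 1 lower member between TOP2A-detected and TOP2A-zero cells. The single higher member over time was SEC61G with DESeq2 in each kind of cell, with no filter over all cells, and with flow cell as a term over all cells and in TOP2A-detected cells. The summed share at a 15% maximum differed by 0.0351 percentage points (4 dpi minus 1 dpi). The median correlation of the members was 0.274 without thinning and 0.218 with Pearson.

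Leaving out each library in turn gave over all cells 5 to 8 members lower, 0 to 2 members higher, -0.64 to 0.40 for ERN1 (log2 ratio). It gave in TOP2A-detected cells over time 428 to 979 genes lower, 0 to 2 members higher, 1 to 3 members lower, 492 to 1001 genes higher. It gave in TOP2A-zero cells over time 0 to 3 members higher, 366 to 791 genes higher, 384 to 776 genes lower, 2 to 6 members lower. It gave between TOP2A-detected and TOP2A-zero cells 260 to 445 genes lower, 8 to 14 members lower, -0.30 to 0.11 for EIF2AK3 (log2 ratio), -0.49 to 0.0223 for XBP1 (log2 ratio). It gave in the interaction 2 to 9 genes lower, 8 to 27 genes higher, 0 to 1 member lower.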
